A study of Homo sapiens with 6 samples.

Results

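Matrix metalloproteinases (MMPs) are secreted or membrane-anchored proteases with a zinc ion in the active site, made as inactive precursors and able between them to cut most proteins of the extracellular matrix. Tissue inhibitors of metalloproteinases (TIMPs) are small secreted proteins that bind the active site and block it. In bladder cancer, as in other carcinomas, the balance of these proteases and inhibitors is studied for its part in the breakdown of basement membrane and in invasion. The 10 genes described here, MMP1, MMP2, MMP3, MMP7, MMP9, MMP10, MMP13, MMP14, TIMP1 and TIMP2, were taken by symbol from the 50868 genes with values in the deposited table.

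The study lowered LNMAT1, a long noncoding RNA, in UM-UC-3 and 5637, established human bladder cancer cell lines, and sequenced the mRNA to look for its target genes. Each line carried, by lentivirus and after puromycin selection, a control hairpin (sh-NC) or either of 2 that target LNMAT1, named sh-LNMAT1#1 and sh-LNMAT1#2, so that virus and selection were shared by all groups. There was 1 library for each construct in each line, 6 in all, and a difference between a pair of libraries has no replicate check. The lines were grown in different media, so line and medium cannot be told apart. Values are FPKM, fragments scaled to gene length and to the depth of the library. This scaling does not correct for libraries that differ in which genes make up their RNA. Comparisons and sums over genes also rest on the gene lengths that the authors used, which are not given in the sources used here. For UM-UC-3 the depths were 24707000 fragments with sh-NC, then 22279000 and 22949000 with the hairpins in order. For 5637 the depths were 20803000 and 19375000 with the same hairpins and 22438000 for the library labelled 5637 sh-NC. In bulk RNA, fewer cells that express a gene and less RNA per cell cannot be told apart.

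LNMAT1 is listed as LINC01296. It was at 14.2 FPKM with sh-NC in UM-UC-3 and at 6.20 and 6.70 with the hairpins in order. In 5637 the hairpin libraries held 4.70 and 2.14 FPKM, against 11.7 FPKM in the library labelled 5637 sh-NC. The hairpin libraries of UM-UC-3 were thus below their control. For 5637 the comparison is with a library that stands apart, as the next values show, so how far LNMAT1 was lowered in 5637 is not known from these data.

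The library labelled 5637 sh-NC stood apart from the other 5637 libraries. Over the 12717 genes whose mean reached 1 FPKM, which are not independent of each other, its log2(FPKM + 0.5) values had correlations of 0.617 and 0.622 with the sh-LNMAT1#1 and sh-LNMAT1#2 libraries of 5637, but 0.922 with UM-UC-3 sh-NC and 0.985 and 0.933 with the UM-UC-3 hairpin libraries. EPCAM, an epithelial adhesion molecule, was at 33.8 and 35.6 FPKM in the 5637 sh-LNMAT1 libraries, at 0.0104 in the library labelled 5637 sh-NC and at most 0.0210 in UM-UC-3. The 9 epithelial markers examined summed to 574 and 756 FPKM in the 5637 sh-LNMAT1 libraries, led by KRT19, and to 26.5 FPKM in the library labelled 5637 sh-NC, against 24.0, 20.8 and 30.1 FPKM in UM-UC-3. VIM, the mesenchymal filament vimentin, was at 103 FPKM in that library, at 332, 116 and 155 FPKM in UM-UC-3, and at 3.85 and 4.14 FPKM in the 5637 sh-LNMAT1 libraries. Mesenchymal markers did not all run this way, since SNAI2 was at 10.1 and 13.8 FPKM and TWIST1 at 4.17 and 2.27 FPKM in the 5637 sh-LNMAT1 libraries, above the library labelled 5637 sh-NC (1.32 and 1.09 FPKM) and all of UM-UC-3 (at most 1.98 and 1.80 FPKM). By the correlations and these genes the library labelled 5637 sh-NC lies with UM-UC-3, and every difference drawn against it below sets the 5637 sh-LNMAT1 libraries beside a library of that kind. What part the line has in those differences was not tested. The pooled fit is given with and without the library, and the ratios and counts drawn against it in 5637 have no other control to replace it.

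**Figure D1:**
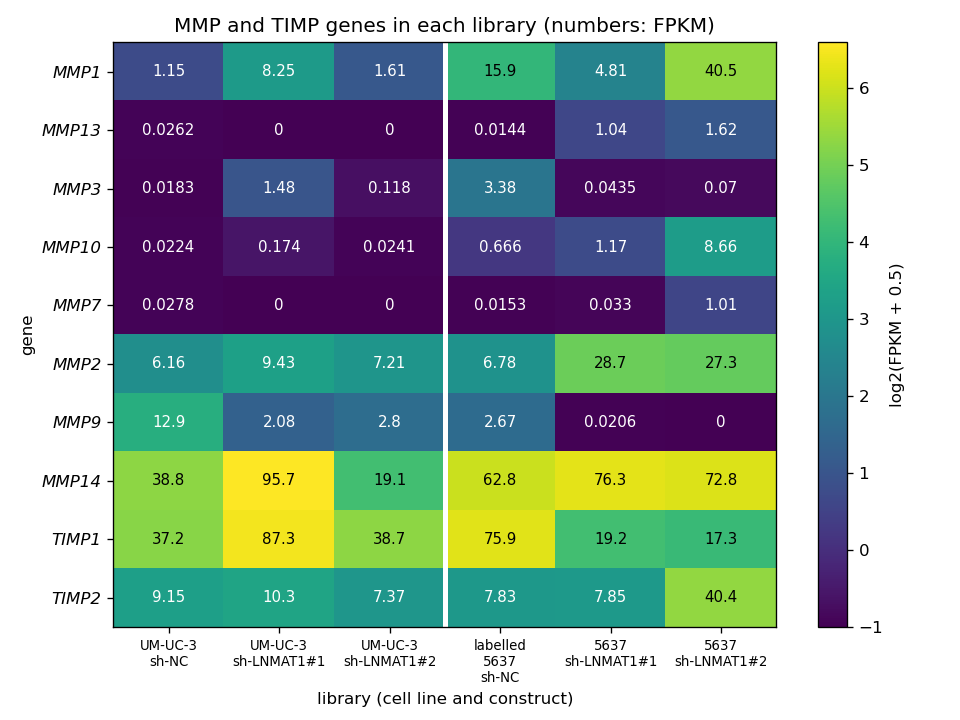
Level of the 10 genes in each of the 6 libraries, with FPKM printed in each cell and colour giving log2(FPKM + 0.5). MMP14 is above 19 FPKM in every library, MMP7 reaches 1.01 FPKM in 5637 sh-LNMAT1#2 alone, and MMP9 is highest in UM-UC-3 sh-NC at 12.9 FPKM.

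MMP9, the gelatinase that cuts denatured collagens and the type IV collagen of basement membranes, was the only member above the floor of 3 fragments for which both UM-UC-3 hairpin libraries were at least 2-fold below sh-NC. It stood at 12.9 FPKM in UM-UC-3 sh-NC, 2.08 with sh-LNMAT1#1 and 2.80 with sh-LNMAT1#2, from 747, 108 and 150 fragments. The control library was thus well above both hairpin libraries, by 6.24-fold (95% counting interval 5.09 to 7.70) and 4.63-fold (3.88 to 5.55). In the library labelled 5637 sh-NC, MMP9 was at 2.67 FPKM from 140 fragments, a level within the range of the UM-UC-3 hairpin libraries and not that of UM-UC-3 sh-NC. In 5637 it was at 0.0206 FPKM with sh-LNMAT1#1, from 1 fragment, and was listed at 0 with sh-LNMAT1#2. Against the library labelled 5637 sh-NC the ratio was 130-fold (95% counting interval 22.9 to 5163) with sh-LNMAT1#1, whose 1 fragment lies under the floor. MMP9 was at least 40.3-fold lower with sh-LNMAT1#2, taking 3 fragments as the floor (the 95% counting bound was 32.3). The 130-fold ratio was not taken from that floor, so it cannot be set against the 40.3-fold value. These intervals and floors cover counting error only. SLC12A5-AS1, annotated on the opposite strand across MMP9, was at 1.06 FPKM with sh-NC in UM-UC-3 and 0.220 and 0.872 with its hairpins, at 0.310 in the library labelled 5637 sh-NC and at 0 in the other 5637 libraries. The library kit keeps strand, but whether strand was used in counting is not given in the sources used here.

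Of the 10 members, 6 had a mean of at least 1 FPKM over the UM-UC-3 libraries (MMP1, MMP2, MMP9, MMP14, TIMP1 and TIMP2). By the rule of at least 2-fold on the log2(FPKM + 0.5) scale in the same direction with both hairpins, 1 of these 6 was lower, MMP9, where 0.358% of 12025 genes were, and 0 were higher, where 1.08% were. The median of the mean log2 difference over both hairpins was 0.27 for the 6 members and 0.00 for all genes. With a threshold of 5-fold, MMP9 no longer counted.

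In UM-UC-3 the levels of MMP14, TIMP1, MMP1 and MMP3 set the hairpins apart. The sh-LNMAT1#1 library differed from the others of its line across genes as well, with correlations of 0.923 to sh-NC and 0.932 to sh-LNMAT1#2, against 0.969 between those, and 0.985 to the library labelled 5637 sh-NC. These members are therefore not set apart from a wider difference of that library. MMP14, which sits in the plasma membrane, cuts fibrillar collagen and activates the MMP2 precursor, was at 38.8 FPKM with sh-NC, 95.7 with sh-LNMAT1#1 and 19.1 with sh-LNMAT1#2. Its control level lay between the hairpin libraries, 2.47-fold below the first and 2.03-fold above the other. TIMP1, a secreted inhibitor, was at 37.2 FPKM with sh-NC, 87.3 with sh-LNMAT1#1 and 38.7 with sh-LNMAT1#2. MMP1, the interstitial collagenase, was at 1.15, 8.25 and 1.61 FPKM in the same order, from 56, 362 and 73 fragments. For TIMP1 and MMP1 the sh-LNMAT1#2 library was near sh-NC while the sh-LNMAT1#1 library was 2.35-fold and 7.17-fold above it. MMP3, stromelysin, which cuts proteoglycans and other MMP precursors, followed the same order at a low level, with 0.0183, 1.48 and 0.118 FPKM from 1, 73 and 6 fragments. Its ratio to sh-NC was 81.0 (95% counting interval 14.1 to 3241) in the sh-LNMAT1#1 library and 6.46 (0.784 to 297) in that of sh-LNMAT1#2, and the latter interval includes no difference.

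MMP2 and TIMP2, which form a complex with MMP14 at the cell surface in which TIMP2 both docks the MMP2 precursor and inhibits its activator, differed little in UM-UC-3. MMP2 was at 6.16 FPKM with sh-NC and at 9.43 and 7.21 with the hairpins. TIMP2 was at 9.15 FPKM with sh-NC and at 10.3 and 7.37 with the hairpins. Neither reached 2-fold from sh-NC with either hairpin. The level of MMP14 per level of TIMP2, both in FPKM, was 4.24 with sh-NC, 9.31 with sh-LNMAT1#1 and 2.59 with sh-LNMAT1#2. MMP10, a stromelysin close in sequence to MMP3, was at 0.0224, 0.174 and 0.0241 FPKM, from 1, 7 and 1 fragments. MMP7 (matrilysin, the smallest of these enzymes) and MMP13 (a collagenase) had 2 fragments each with sh-NC and 0 with either hairpin, at or under the floor in all of UM-UC-3, so no fold is given.

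**Figure D2:**
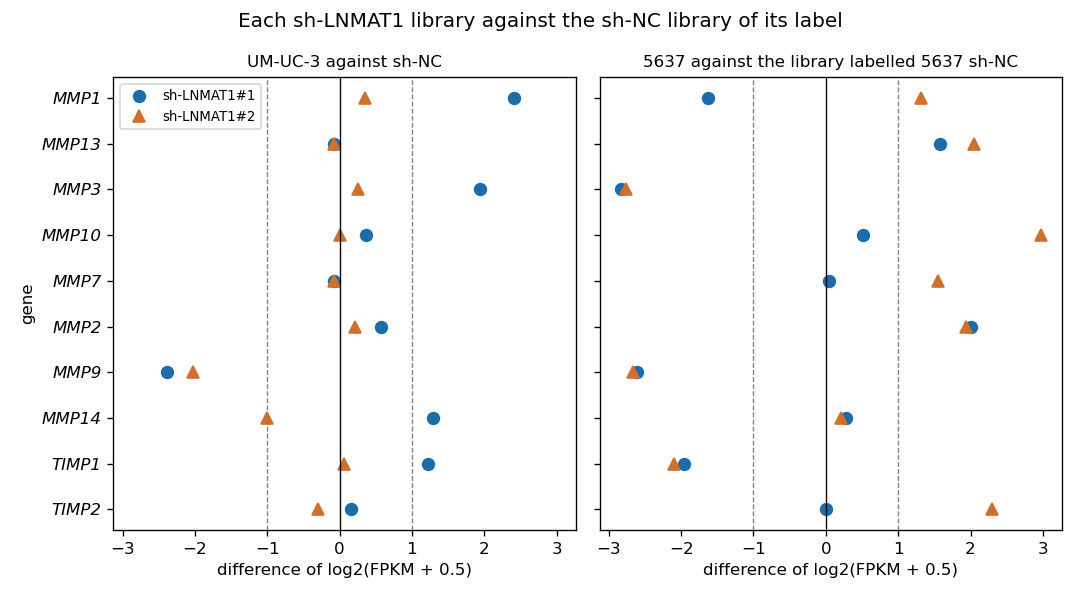
Difference of log2(FPKM + 0.5) between each sh-LNMAT1 library and the control as labelled of the same line, with circles for sh-LNMAT1#1, triangles for sh-LNMAT1#2 and dashed lines at 2-fold. In UM-UC-3 MMP9 lies beyond the left line with both hairpins, and in 5637 MMP2 and MMP13 lie to the right, and MMP3, MMP9 and TIMP1 to the left, with both.

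In 5637, MMP2 was at 28.7 FPKM with sh-LNMAT1#1 and 27.3 with sh-LNMAT1#2, against 6.78 in the library labelled 5637 sh-NC. Both hairpin libraries were 4.24-fold and 4.03-fold above that library, whose level fell inside the UM-UC-3 range. TIMP1 was at 19.2 and 17.3 FPKM with the hairpins and at 75.9 in the library labelled 5637 sh-NC, 3.95-fold and 4.39-fold lower with the hairpins. MMP3 was at 3.38 FPKM from 168 fragments in the library labelled 5637 sh-NC, and at 0.0435 and 0.0700 FPKM from 2 and 3 fragments with the hairpins. The labelled control was above sh-LNMAT1#1 by 77.9-fold (95% counting interval 21.2 to 648) and above sh-LNMAT1#2 by 48.4-fold (16.3 to 237). MMP13 was at 1.04 and 1.62 FPKM with the hairpins, from 67 and 97 fragments, and at 0.0144 FPKM from 1 fragment in the library labelled 5637 sh-NC. The ratios of the hairpin libraries to it were 72.3 (12.5 to 2896) and 112 (19.7 to 4482). MMP14 was at 62.8 FPKM in the library labelled 5637 sh-NC, 76.3 with sh-LNMAT1#1 and 72.8 with sh-LNMAT1#2, levels within 1.21-fold of each other.

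Over the 5637 libraries, 7 of 10 members had a mean of at least 1 FPKM (MMP1, MMP2, MMP3, MMP10, MMP14, TIMP1 and TIMP2), and MMP3 did so only through the library labelled 5637 sh-NC, so it had to be lower. By the rule for both hairpins, 1 of the 7 was at least 2-fold higher (MMP2), where 18.5% of 12791 genes were, and 2 were lower (MMP3 and TIMP1), where 12.3% were. Without a filter on low values MMP9 and MMP13 were added, making 5, and at a threshold of 5-fold only MMP3, which had to differ, was left. There is no other control library in 5637, so this count has no value without the one that stands apart.

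When its members were set beside those of UM-UC-3, the library labelled 5637 sh-NC had its nearest level, by ratio, in UM-UC-3 sh-LNMAT1#1 for MMP1, MMP3, MMP10, MMP14 and TIMP1, and in UM-UC-3 sh-LNMAT1#2 for MMP2, MMP9 and TIMP2. MMP14 was at 62.8 against 95.7 FPKM in the former and TIMP1 at 75.9 against 87.3. TIMP2 was at 7.83 against 7.37 FPKM in the latter, MMP2 at 6.78 against 7.21 and MMP9 at 2.67 against 2.80. None had its nearest level in UM-UC-3 sh-NC, and MMP7 and MMP13 were at or under the floor in all 4 libraries. MMP1 and MMP3 stood higher in the library labelled 5637 sh-NC than in UM-UC-3 sh-LNMAT1#1, by 1.93-fold (95% counting interval 1.69 to 2.19) and 2.29-fold (1.73 to 3.05). MMP10 stood 3.83-fold higher (1.63 to 10.4), at 0.666 FPKM from 27 fragments.

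In 5637 the hairpins were set apart by MMP1, MMP10, TIMP2 and MMP7, and their difference leaves out the library labelled 5637 sh-NC. This comparison was added after the values had been seen. MMP1 was at 4.81 FPKM with sh-LNMAT1#1, 40.5 with sh-LNMAT1#2 and 15.9 in the library labelled 5637 sh-NC, from 197, 1544 and 702 fragments. The labelled control again lay between the hairpins, which were 8.42-fold apart (95% counting interval 7.25 to 9.81). MMP10 was at 1.17 FPKM with sh-LNMAT1#1 and 8.66 with sh-LNMAT1#2, from 44 and 303 fragments, 7.39-fold apart (5.38 to 10.4). TIMP2 was at 7.85 and 40.4 FPKM, 5.15-fold apart, and its level with sh-LNMAT1#1 was that of the library labelled 5637 sh-NC (7.83 FPKM). MMP7 was at 0.0330 FPKM from 2 fragments with sh-LNMAT1#1 and at 1.01 FPKM from 57 fragments with sh-LNMAT1#2, a ratio of 30.6 (8.09 to 259). MMP2, MMP14 and TIMP1 were within 1.11-fold between these libraries, and MMP13 was 1.55-fold higher with sh-LNMAT1#2 (1.13 to 2.16).

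Between the hairpins in 5637, 3 of the 7 members whose mean reached 1 FPKM over both libraries were at least 2-fold apart, where 2.17% of 12472 genes were. All 3, MMP1, MMP10 and TIMP2, were higher with sh-LNMAT1#2, at ranks 10, 24 and 29 of those genes by the size of the difference. In UM-UC-3, 3 of 6 members were at least 2-fold apart, where 9.07% of 12083 genes were. These were MMP1, MMP14 and TIMP1, at ranks 99, 61 and 697, and all were lower with sh-LNMAT1#2. MMP1 was therefore higher with sh-LNMAT1#2 in 5637 and lower with it in UM-UC-3, where the hairpins were 5.11-fold apart (95% counting interval 3.96 to 6.66). With 1 library each, a difference between hairpins and a difference between cultures cannot be told apart.

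Pooled over both lines, with the line as a covariate, limma called 0 of the 7 members whose mean reached 1 FPKM over all libraries, where it called 0.0% of 12717 genes. At an unadjusted p under 0.05 there were 811 genes. MMP9 had the smallest p of all 12717 genes, with a log2 difference of -2.42 (standard error 0.29), lower in 4 of 4 hairpin libraries, and an adjusted p of 0.569. The fitted difference depends on the pseudocount, since MMP9 was at or under the floor in both 5637 hairpin libraries, and it was -3.52 with a pseudocount of 0.1. In 5637 the control of this fit is the library that stands apart. Without that library the difference was -2.21 with an adjusted p of 0.600, and without UM-UC-3 sh-NC it was -2.64 with an adjusted p of 0.00255, where 3 members were called (MMP9 and TIMP1 lower, MMP2 higher). In that last fit limma called 2028 genes higher and 1919 lower, and the only control was the library labelled 5637 sh-NC. Over all alternatives the adjusted p of MMP9 ranged from 0.00255 to 0.980. The other 6 members had adjusted p values of 0.569 to 0.908.

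The lines were compared at matched constructs with the 4 sh-LNMAT1 libraries, without either library labelled sh-NC. The hairpins of a line stand in for replicates, so these p values measure the spread between hairpins. Of the 7 members whose mean reached 1 FPKM over these libraries, limma called 2 higher in 5637 (MMP2 and MMP10), where it called 20.1% of 12844 genes, and 2 lower (MMP9 and TIMP1), where it called 18.4%. MMP10 passed this filter only through 5637 and MMP9 only through UM-UC-3, so these 2 had to differ and the counts do not set the members apart from other genes. MMP2, above 27 FPKM in both 5637 libraries and below 10 in both of UM-UC-3, had a log2 difference of 1.70 (standard error 0.22) and an adjusted p of 0.0032. TIMP1, with both 5637 libraries below both of UM-UC-3, had a log2 difference of -1.65 (standard error 0.40) and an adjusted p of 0.0265. Over the alternatives the adjusted p ranged from 0.00109 to 0.335 for MMP2 and from 0.00348 to 0.512 for TIMP1. Leaving out 5637 sh-LNMAT1#1 or sh-LNMAT1#2 ended both calls, with an adjusted p of 0.0783 or 0.0703 for MMP2 and 0.196 or 0.209 for TIMP1, with log2 differences of 1.67 or 1.74 and of -1.72 or -1.57. Without UM-UC-3 sh-LNMAT1#1 or sh-LNMAT1#2 both calls held, but the log2 difference was 1.89 or 1.52 for MMP2 and -1.07 or -2.23 for TIMP1.

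MMP9 had a log2 difference of -2.51 (standard error 0.22) between the lines and an adjusted p of 9.24e-04 from limma. It was below 1 FPKM in both 5637 libraries and so had to differ, and the size of the difference is set by the pseudocount (-4.51 at 0.1 and -1.76 at 1). For MMP9, without each of the 4 libraries in turn, the adjusted p lay between 0.0026 and 0.0209. Over all alternatives it ranged from 3.11e-04 to 0.335. Hairpin by hairpin, UM-UC-3 was 101-fold above 5637 with sh-LNMAT1#1 (95% counting interval 17.7 to 4020), from 1 fragment in 5637, under the floor. With sh-LNMAT1#2 MMP9 was at least 42.2-fold lower in 5637, taken from the floor (counting bound 33.9), so these values cannot be set against each other. MMP10 had a log2 difference of 2.72 (standard error 0.78) and an adjusted p of 0.0432, and with a pseudocount of 1 the log2 difference was 2.06 and limma did not call it (adjusted p 0.0629), against 4.18 at 0.1. Its call was lost without UM-UC-3 sh-LNMAT1#1 (log2 difference 2.90, adjusted p 0.136) or sh-LNMAT1#2 (2.54, 0.167). It was kept without 5637 sh-LNMAT1#1 (3.95, 0.00637) or sh-LNMAT1#2 (1.49, 0.0325), with a range over the alternatives from 0.00637 to 0.347. MMP1, MMP14 and TIMP2 were not called, with adjusted p values of 0.255, 0.427 and 0.326. For MMP14 a single library decided this, since without UM-UC-3 sh-LNMAT1#1, its highest level, the log2 difference was 1.94 with an adjusted p of 0.00524 and without UM-UC-3 sh-LNMAT1#2 it was -0.36, with adjusted p values over the alternatives from 0.00524 to 0.867. TIMP2 was at 40.4 FPKM in 5637 sh-LNMAT1#2 and between 7.37 and 10.3 in the other 3 libraries of this comparison. Its log2 difference was 1.01, and it was 2.15 without 5637 sh-LNMAT1#1 and -0.14 without 5637 sh-LNMAT1#2. For MMP1 the log2 difference was 1.78, and it was 3.25 and 0.30 without the same libraries in that order. MMP13, left out by the filter, was at least 23.9-fold higher in 5637 than in UM-UC-3 with sh-LNMAT1#1 (counting bound 18.9) and at least 38.3-fold higher with sh-LNMAT1#2 (30.6). MMP3 and MMP7 were also left out. With all 6 libraries grouped as labelled, 0 members were called, and limma called 1 gene higher and 1 lower of all tested with 1728 at an unadjusted p under 0.05.

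**Figure D3:**
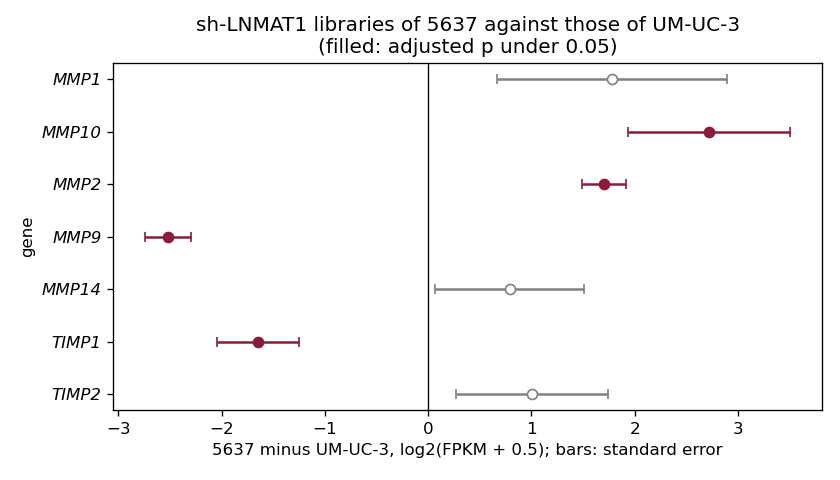
Difference of log2(FPKM + 0.5) between the sh-LNMAT1 libraries of 5637 and those of UM-UC-3 for the 7 members tested, with standard errors from limma over 4 libraries and filled points for an adjusted p under 0.05. MMP2 and MMP10 lie to the right of 0 and MMP9 and TIMP1 to the left, and the wide bars of MMP1, MMP10, MMP14 and TIMP2 come with libraries of a line that were far apart.

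The difference from the control as labelled was also compared between the lines, as an interaction of line and knockdown. Limma called 1 of 7 members there, MMP2, with a log2 difference of 1.58 (standard error 0.38) and an adjusted p of 0.0432 (0.0423 to 0.134 over the alternatives), where it called 18.8% of 12717 genes. TIMP1 missed the threshold, with a log2 difference of -2.67 (standard error 0.69) and an adjusted p of 0.0529. Each control arm of this fit is a single library, so its spread comes from the pairs of hairpins alone and a control is assumed to vary like them. The fit needs the library labelled 5637 sh-NC and has no value without it.

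The genes of 5 members, MMP7, MMP10, MMP1, MMP3 and MMP13, lie in this order on the minus strand of chromosome 11, in a run of 9 MMP genes over 435 kb from 102520508 to 102955734 on GRCh38. The 4 other genes of the run, MMP20, MMP27, MMP8 and MMP12, were at most 0.193 FPKM in any library, while MMP1 in their midst reached 40.5 FPKM. MMP3, next to MMP1, was under the floor or at it in both 5637 sh-LNMAT1 libraries, in which MMP1 was at 4.81 and 40.5 FPKM. MMP13 was above the floor only in those libraries. MMP7, MMP10, MMP1 and, by less, MMP13 were each higher in 5637 with sh-LNMAT1#2 than with sh-LNMAT1#1. The other members lie elsewhere, MMP2 on chromosome 16, MMP9 on 20, MMP14 on 14, TIMP1 on X and TIMP2 on 17.

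Promoter sequences from RefSeq (GRCh38.p14) were matched for 4 of the 10 members, MMP7, MMP10, MMP14 and TIMP1. They were searched from 250 bases before to 50 bases after the start for TGAGTCA, a binding motif of AP-1 transcription factors known from many MMP promoters, and for TGACTCA, its reverse complement. MMP7 held TGAGTCA at position -67 from the start, and MMP10, MMP14 and TIMP1 held neither, while 4.95% of 35116 promoters of the same length held either. A match is a description and not a measured site. MMP7 and MMP10 are shown because both lie in the run on chromosome 11 and were higher in 5637 with sh-LNMAT1#2. The sequences run from position -160 to -11, upstream of the annotated gene, with the motif in capitals. That of MMP7 lies at chr11:102530758-102530907 and that of MMP10 at chr11:102780639-102780788, both on the minus strand.
MMP7: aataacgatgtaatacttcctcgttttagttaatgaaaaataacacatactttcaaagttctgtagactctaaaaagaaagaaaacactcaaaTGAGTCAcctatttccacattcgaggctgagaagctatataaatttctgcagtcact
MMP10: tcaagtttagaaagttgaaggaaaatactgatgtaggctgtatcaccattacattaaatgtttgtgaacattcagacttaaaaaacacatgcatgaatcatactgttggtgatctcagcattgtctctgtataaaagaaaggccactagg

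The inhibitors were described together with TIMP3, which is bound to the matrix, and TIMP4. TIMP3 was at 69.1 and 142 FPKM in 5637 with sh-LNMAT1#1 and sh-LNMAT1#2 and at most 0.263 FPKM in the other 4 libraries. TIMP4 was at 4.95 and 2.66 FPKM in the same 5637 libraries and at most 0.0272 elsewhere. TIMP1 made up 80.1%, 89.2% and 83.8% of the summed TIMP1 to TIMP4 FPKM in UM-UC-3 and 90.5% in the library labelled 5637 sh-NC. With the 5637 hairpins TIMP1 made up 19.0% and 8.54%, and TIMP3 68.4% and 70.2%. The summed level was 46.4, 97.9 and 46.1 FPKM in UM-UC-3, 83.9 in the library labelled 5637 sh-NC, and 101 and 202 with the 5637 hairpins. With sh-LNMAT1#1 the lower TIMP1 of 5637 came with a sum near that of UM-UC-3, at 101 against 97.9 FPKM. With sh-LNMAT1#2 it came with a higher sum, at 202 against 46.1 FPKM. Among the proteases, MMP14 was the most abundant of 23 MMP genes in every library and made up 41.5% to 71.8% of their summed FPKM, which was lowest at 42.6 in UM-UC-3 sh-LNMAT1#2 and highest at 176 in 5637 sh-LNMAT1#2.

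**Figure D4:**
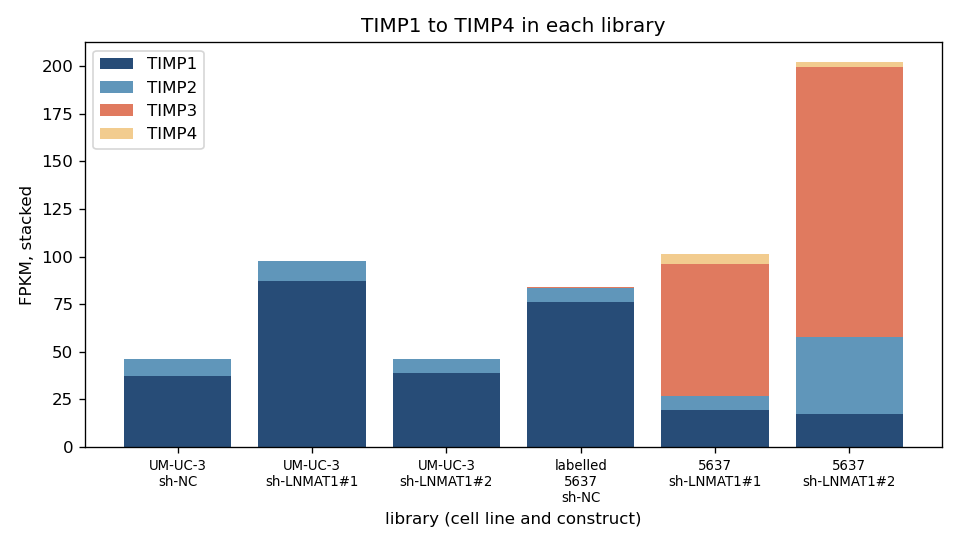
FPKM of TIMP1, TIMP2, TIMP3 and TIMP4 stacked for each of the 6 libraries. TIMP1 forms most of the bar in UM-UC-3 and in the library labelled 5637 sh-NC, and TIMP3 forms most of it in the 5637 sh-LNMAT1 libraries, at 69.1 and 142 FPKM.

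Genes around the members were counted in the same comparison of the lines over the 4 sh-LNMAT1 libraries, where 20.1% of all genes tested were higher in 5637 and 18.4% lower. Apart from MMP15, FURIN and JUN, the genes named from these lists had a mean below 1 FPKM in 1 of the lines, were tested only through their level in the other and so had to differ. Of 15 other MMP genes, 5 were tested, 3 were higher in 5637 and 1 lower, of which 3 of 4 had to differ in this way. MMP28 and the membrane-anchored MMP15 were higher, with log2 differences of 3.58 and 2.71, and MMP19 was lower, with -2.44. Of 10 other metalloproteinase inhibitors, 6 were tested, of which 3 were higher and 0 lower, namely TIMP3 (7.21), SPOCK1 (3.87) and TIMP4 (3.01), and all 3 had to differ. Of 19 ADAMTS proteases, relatives that cut proteoglycans and procollagens, 5 were tested, 2 were higher and 2 lower, and all 4 had to differ. ADAMTS1 had a log2 difference of -4.62, ADAMTS7 of 4.02 and ADAMTS16 of -3.53. These counts are given as description, since how many of all the genes called had to differ was not counted. By the 2-fold rule in UM-UC-3, 0 of 2 MMP genes, 0 of 3 inhibitors and 1 of 6 ADAMTS genes that passed its filter were lower and 0 were higher, where 0.358% and 1.08% of all genes were.

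Of 14 genes for the activation, docking and clearance of MMPs, 11 were tested, 4 were higher in 5637 and 2 lower (20.1% and 18.4% over all genes), of which 3 of 6 had to differ. LCN2, lipocalin 2, which forms a complex with MMP9 protein, was at 583 and 616 FPKM in the 5637 sh-LNMAT1 libraries and at most 0.202 FPKM in the others, so that LCN2 was high in the libraries where MMP9 was at or under the floor. THBS1, thrombospondin, had a log2 difference of 6.36, and FURIN, a convertase that activates the MMP14 precursor, of 2.58. Of 18 genes for matrix proteins that MMPs can cut, 14 were tested, 11 were higher in 5637 and 2 lower (20.1% and 18.4% over all genes), of which 8 of 13 had to differ. Among them COL7A1, the anchoring fibril collagen, had a log2 difference of 5.81, and SPARC of -5.89.

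Of 11 inducers of MMP transcription, 10 had values and 7 were tested, of which 4 were higher in 5637 and 1 lower (20.1% and 18.4% over all genes), and all 5 had to differ. The cytokine genes IL1A and IL1B were at 257 and 94.8 FPKM in 5637 sh-LNMAT1#1 and at 304 and 118 FPKM in sh-LNMAT1#2, and both were at most 0.470 FPKM in the other 4 libraries. AREG, an EGF receptor ligand, had a log2 difference of 5.95. Of 14 AP-1, ETS and RUNX factors, 11 were tested, 2 were higher in 5637 and 5 lower (20.1% and 18.4% over all genes), of which 3 of 7 had to differ. ETV5 and JUN were lower (-4.91 and -2.98) and ELF3, an epithelial ETS factor, was higher (4.04). By the same rule in UM-UC-3, 0 of 3 inducers, 0 of 9 factors and 0 of 9 activation genes that passed its filter were higher or lower, and 1 of 10 matrix genes was lower, where 1.08% of all genes were higher and 0.358% lower. That matrix gene, COL17A1, was at 3.40 FPKM with sh-NC and at 0.216 and 1.155 with the hairpins. COL17A1 passed the filter only through its level with sh-NC, so it had to be lower with the hairpins, though the filter did not fix a 2-fold difference.

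Markers of other cells that can supply MMPs were mostly near 0. The 7 macrophage markers summed to 15.5, 29.5 and 13.1 FPKM in UM-UC-3, to 31.2 in the library labelled 5637 sh-NC, and to 1.67 and 1.43 with the 5637 hairpins. CD68, the most abundant, was the only macrophage gene to reach 1 FPKM in any library, LYZ was at 0 in every library and PTPRC was at most 0.0108 FPKM. The lower sum with the 5637 hairpins came from CD68, at 0.749 and 0.826 FPKM there and at least 13.0 elsewhere. CD14 and CSF1R ran the other way, at 0.661 and 0.388 FPKM and at 0.260 and 0.209 FPKM with those hairpins. Elsewhere they were at most 0.151 and 0.0606 FPKM. CD163 was at 0 with those hairpins and at most 0.0435 FPKM elsewhere. The 7 fibroblast markers summed to between 2.24 and 11.7 FPKM, with COL1A1 highest in the 5637 sh-LNMAT1 libraries and THY1 in the others, and DCN was at most 0.0262 FPKM. The 4 endothelial markers summed to at most 0.291 FPKM. The 6 urothelial markers summed to 1.35, 4.81 and 1.67 FPKM in UM-UC-3, 3.39 in the library labelled 5637 sh-NC, and 23.0 and 22.4 with the 5637 hairpins, led by PPARG, and UPK1B was at 0 throughout. UPK1A ran the other way, at 0 and 0.0485 FPKM with the 5637 hairpins and at 0.293 to 0.410 FPKM elsewhere. The 6 mesenchymal markers summed to 365, 158 and 187 FPKM in UM-UC-3, mostly from VIM, 141 in the library labelled 5637 sh-NC, and 26.5 and 32.2 with the 5637 hairpins.

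MMP14 had the highest mean of the MMP members, 60.9 FPKM. Of 12717 genes, the 3 whose centred log2(FPKM + 0.5) over the 6 libraries lay nearest to it, by the sum of absolute differences, were GALNT12 (0.90), RP13-36G14.4 (1.14) and MARCKSL1 (1.23). MARCKSL1 was at 30.7 FPKM with sh-NC in UM-UC-3 and 82.8 and 12.2 with its hairpins, at 76.8 in the library labelled 5637 sh-NC, and at 73.7 and 63.2 with the 5637 hairpins. As for MMP14, the lowest level was in UM-UC-3 sh-LNMAT1#2 and the highest in UM-UC-3 sh-LNMAT1#1.

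Among pairs of a member with another MMP or TIMP gene, exact 50-base words were shared by MMP3 and MMP10 only. The search took no account of read length or mismatches, so reads shared by other pairs were not tested. Of the 50-base words in the annotated transcripts of MMP3, 2.88% also occurred in MMP10, and no other pair shared any. In UM-UC-3 sh-LNMAT1#1 and the library labelled 5637 sh-NC, MMP3 was above MMP10 in FPKM, and in the 5637 sh-LNMAT1 libraries MMP10 was above MMP3.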

How the data were processed

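Total RNA was sequenced as stranded mRNA libraries, and the authors deposited FPKM per gene in a table of 50869 rows, of which 1 row without values was left out. The submitters' processing notes name HISAT2 and hg38, and the counting program and annotation are not given in the sources used here. Of the identifiers, 47522 had the identical position in GENCODE release 29, which supplied positions and exons. Depth was read from single-exon genes, whose FPKM times length was a whole multiple (within 0.05) of 1 fragment in at least 99.957% of values. MMP1 and MMP9 have 1 annotated transcript, which gave their fragments. For MMP3, MMP7, MMP10 and MMP13 fragments are inferred as the smallest whole numbers with the observed ratios. They imply lengths of 2213, 2915, 1806 and 3093 bases, above the 2048, 2323, 1758 and 2834 of GENCODE, so the authors' gene models may differ and these fragments and their intervals are less certain. Ratio intervals are exact (Clopper-Pearson), and a floor of 3 fragments per library was used.

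Python 3.11.15 (numpy 2.4.6, pandas 2.3.3, matplotlib 3.10.9) were used with limma 3.58.1 in R 4.3.3. Differences are of log2(FPKM + 0.5), which understates those of low genes, over genes whose mean in the libraries compared reached 1 FPKM. Limma (lmFit, eBayes with a trend) left 3 residual degrees of freedom for the pooled fit and 2 for the line and interaction fits, and was tested on simulated data. P-values were Benjamini-Hochberg adjusted over all genes, and calls made under 0.05. Nothing in the labels says that libraries came from separate cultures, so p-values measure only the spread between these libraries. The genes named were all 10 members, the 3 largest line differences of each list other than the markers (2 of the 3 for the matrix genes), and the 3 genes nearest MMP14, and RefSeq supplied promoters. Other genes (all markers named, MMP8, MMP12, MMP20, MMP27, COL17A1 and the gene antisense to MMP9) were named after their values were seen. The members and lists were chosen with earlier results of these data known. Alternatives were other pseudocounts, filters, fold thresholds and scaling, limma without a trend or with other covariates, and leaving out libraries.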

Additional observations from a re-analysis of the deposited data

Results flagged for a closer look

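The difference of MMP2 from the control as labelled was called as different between the 2 lines by limma, in a fit where each control arm is a single library. The interaction of line and knockdown was 1.58 on the log2 scale, with an adjusted p of 0.0432 from limma, and over the alternatives the adjusted p ranged from 0.0423 to 0.134, with 3 of 6 keeping the call. In all 6 the 5637 side of this comparison rests on the library labelled 5637 sh-NC, where MMP2 was at the UM-UC-3 level.

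The log2 differences of MMP3 from the control as labelled had opposite signs in the lines. They were 1.93 and 0.25 (sh-LNMAT1#1, then sh-LNMAT1#2) in UM-UC-3 and -2.84 and -2.77 in 5637. The 5637 values were -4.60 and -4.36 with a pseudocount of 0.1 and -2.07 and -2.03 with 1. It did not pass the filter of the fits, and without a filter limma gave an interaction of -3.90 on the log2 scale with an adjusted p of 0.298, so the difference between the lines was not called. The value of 0.25 rests on 6 fragments against 1, and the 5637 values rest on the library labelled 5637 sh-NC.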

How the results depend on the processing

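Within a line no replicates could be paired, since it has a single library of each construct. Between the lines the libraries pair by hairpin, and with the hairpin as a covariate the same 4 members were called. In UM-UC-3, the count of members at least 2-fold apart with both hairpins was 1, and it was 0 at a threshold of 5-fold, 4 by sh-LNMAT1#1 alone, and 2 when only sh-LNMAT1#2 was used. In 5637 it was 3, and it was 5 without a filter, 1 at 5-fold and 6 with sh-LNMAT1#2 alone. Leaving out 1 library in turn, the pooled fit called 0 to 3 members, and the line comparison, with 4 called, called 2 to 4, of which 2 or 3 were among the original 4. The line comparison called 2 members without a filter, 2 with a filter of 5 FPKM (which left out MMP9 and MMP10) and 0 with all 6 libraries as labelled. The interaction called 1 member, 2 with a pseudocount of 0.1 (MMP9 added, with an adjusted p of 0.0384 from limma), and 0 without a filter, with a filter of 5 FPKM and with 75th-percentile scaling. The MMP9 interaction, on the log2 scale, was -0.43 in the main fit, -2.28 with a pseudocount of 0.1 and 0.17 with 1. Its sign thus turned with the pseudocount. For the counts above the cause was not tested, except where fewer genes or a single hairpin were used. In the interaction and in fits with a library left out, the lone library of an arm is assumed to vary like the others.

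Over all genes, the pooled fit called 0 higher and 0 lower, and without a filter 11 higher and 143 lower, none of them a member. The line comparison called 2588 genes higher and 2361 lower, and 1722 and 1246 without a filter, 1125 and 1200 with a filter of 5 FPKM, 1 and 1 as labelled, 960 and 430 without 5637 sh-LNMAT1#1 and 981 and 420 without 5637 sh-LNMAT1#2. The interaction called 1270 higher and 1118 lower, and 417 and 466 with a filter of 5 FPKM. Without a filter the interaction called more genes in each direction, but no member. Of the values of single members under alternatives, 16 lost a call, 5 gained one and none turned a call around. Another 12, all differences from sh-NC, moved by more than the standard deviation over the hairpins, and 263 did neither. The counts between the hairpins, added after seeing the data, were 3 in each line and 2 to 4 under their alternatives. Depth limits MMP3, MMP7, MMP10 and MMP13, which rest on 0 to 7 fragments in several libraries. It also limits MMP9 in 5637, with 1 fragment for sh-LNMAT1#1 and 0 for sh-LNMAT1#2.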
